A study of Drosophila melanogaster with 4 samples.

Results

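Small nucleolar RNAs (snoRNAs) were compared between Drosophila S2 cells starved in Krebs Ringer Bicarbonate buffer (KRB) and S2 cells kept in Schneider's medium. The snoRNA genes were all rows of the deposited count table whose symbol begins with snoRNA:, which gave 58 of 2049 listed genes. Names holding Psi or aca were classed as box H/ACA (5 genes) and names holding Me, CD or U followed by digits as box C/D (51 genes), and 2 genes, snoRNA:CG31191-a and snoRNA:snR38:54Ec, stayed unclassed. For brevity the prefix is left out below.

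Box C/D snoRNAs base-pair with ribosomal RNA and direct 2'-O-methylation by the methyltransferase fibrillarin, whereas box H/ACA snoRNAs direct the conversion of uridine to pseudouridine by dyskerin, which is Nop60B in flies. Each RNA is held in a ribonucleoprotein particle, the C/D particle with Snu13 (Hoip in flies), Nop56 and Nop58, and the H/ACA particle with Nhp2, Nop10 and Gar1. In flies most of them are cut out of the introns of host genes, many of which encode ribosomal proteins. Other hosts are non-coding U snoRNA host genes (Uhg) whose spliced exons have no known product. A name such as Me28S-A992 or Psi18S-640d gives the modification, the target RNA and the position.

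S2 is an established line of hemocyte-like cells derived from embryos. The 2 KRB libraries and the 2 Schneider's libraries came from unmodified S2 cells kept for 4 h in each liquid, as biological replicates of each. KRB has no amino acids and no serum, whereas the study's Schneider's medium holds both. It also holds more sodium than Schneider's medium, so the effects of these and other differences between the liquids cannot be told apart. Total RNA was purified on a silica column, depleted of ribosomal RNA and sequenced as a stranded library of single-end reads. How much RNA as short as a snoRNA was kept by the column and the library was not measured.

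The libraries held 1957713 and 2801713 reads on the listed genes in KRB, against 1108029 and 2414465 reads in Schneider's medium. These sums are not the sequencing depth, since the table holds only genes that the authors had selected for a change between these same 4 libraries. Therefore no count of snoRNA genes that changed is independent evidence of a change, and a gene that is not listed was not measured here. Of 11 markers of hemocytes 2 were listed (eater and Sr-CI, with summed normalized counts of 748 and 409 in KRB, against 1937 and 1073 in Schneider's medium). Of 11 markers of neurons, muscle, fat body and germ line 2 were listed (brp and Mlc2, with summed normalized counts of 37.9 and 30.5 in KRB, against 33.0 and 49.4 in Schneider's medium), and the part of cell state or of other cells in the results below was not tested.

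The listed snoRNA genes were mostly of the C/D class. In the Ensembl annotation of the same genome build (BDGP6, dm6), 54 of the 58 symbols were found among 253 annotated snoRNA genes. The table listed 48 of 107 annotated C/D genes (44.9%), but 4 of 114 annotated H/ACA genes (3.51%) and 2 of 32 unclassed genes (6.25%). Whether the unlisted genes were too weakly counted, or did not change, could not be seen from the table. The 4 symbols with no match were Me28S-U1554, Me28S-C1237, Or-CD11 and Psi28S-612.

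The classes differed in length and in where they lay in their hosts. Listed C/D genes were 67 to 113 nt long (median 77 nt) and listed H/ACA genes 131 to 141 nt (median 139 nt), and a longer RNA gives more reads per molecule, so counts below compare a gene or a fixed set of genes with itself between liquids. By name, 31 C/D genes pointed to 28S, 9 to 18S and 1 to 5.8S ribosomal RNA, and the other 10 had names with no target. Among the H/ACA genes 3 pointed to 18S and 2 to 28S ribosomal RNA.

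The 53 genes with a host lay in 23 host genes, with 29 in non-coding hosts, 16 in ribosomal protein genes and 8 in other protein-coding genes. The single gene with no host, Psi18S-301, lay at 20574906 to 20575043 on chromosome arm 3R. Uhg1 on 2R held 9 of the listed genes (of 16 annotated inside it), Uhg5 on 2R held 8 of 11, the non-coding gene lncRNA:CR45184 on 3L held 5 of 5, and RpL28 and Nop60B held 4 each. A total of 43 genes lay inside an intron, where reads of unspliced host RNA can be counted for the snoRNA. A further 10 overlapped an exon of at least 1 host transcript, where reads of the host can be counted for it too. Reads of mature snoRNA were not separated from reads of host RNA here, so a fall or rise below is one of reads on the gene.

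The 38 intronic C/D genes sat at a nearly fixed distance from the exon that follows them. Their 3' end was 61 to 88 nt from that exon (median 71 nt), while the distance from the upstream exon ran from 25 to 359 nt (median 37 nt) and the intron from 171 to 503 nt (median 187 nt). The 3 intronic H/ACA genes lay in longer introns of 422 to 2651 nt and ended 81 to 562 nt before the next exon. No snoRNA sequence is shown, since none was held in the files used here.

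**Figure D1:**
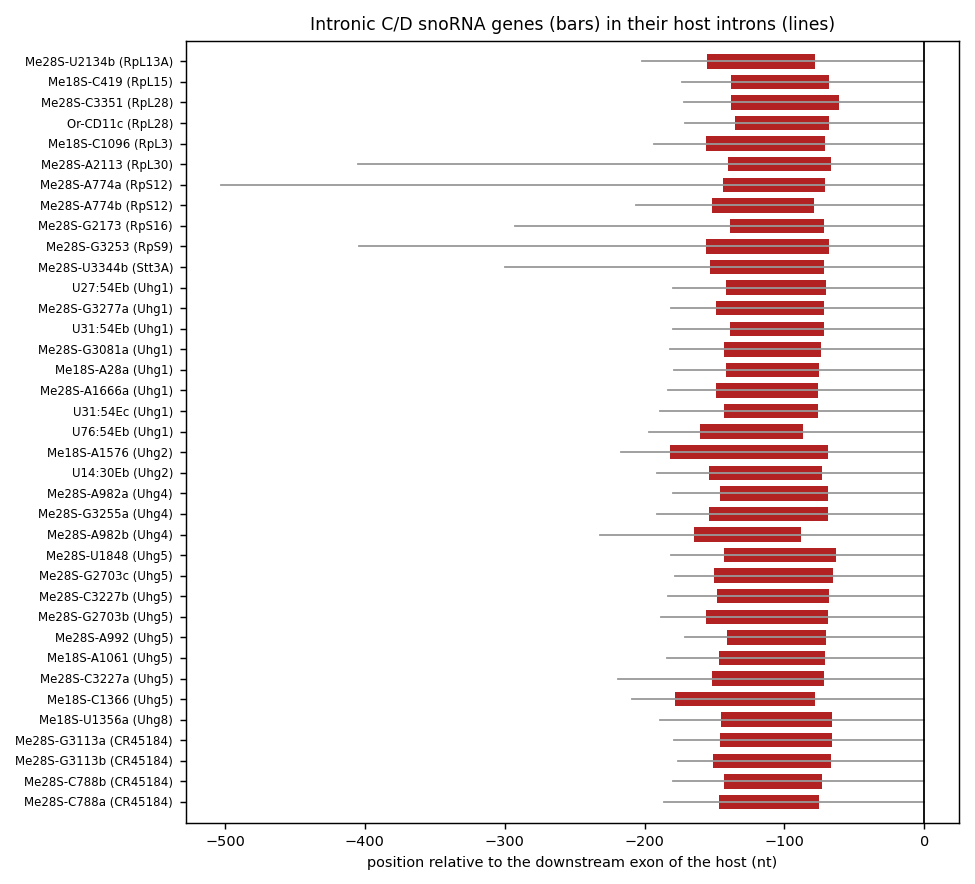
Each line is the intron that holds 1 of 37 of the 38 intronic C/D snoRNA genes (host in brackets) and each bar the snoRNA gene, drawn in nt before the downstream exon of the host, which starts at 0. The right ends of the bars lie between 61 and 88 nt before that exon, whereas the left ends of the introns vary from 171 to 503 nt.

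Reads on snoRNA genes were few. The 58 genes together had 355 and 491 reads in KRB, against 910 and 2060 reads in Schneider's medium. The mean count per gene over the 4 libraries ran from 4.5 to 105.75 (median 12), and 21 genes (36.2%) had a mean under 10. No gene had 0 reads in a Schneider's library, but 7 had 0 reads in a KRB library, and 43 had fewer than 10 reads in both KRB libraries. Of the 58 genes, 36 carry a letter for 1 of several copies of the same guide, so reads of near-identical copies may have been split between them.

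After scaling between libraries (edgeR's TMM method, the trimmed mean of M-values), the sum over all snoRNA genes was 480 and 500 normalized counts in KRB, against 1111 and 1225 in Schneider's medium, which is 2.38-fold lower in KRB. The sum was 1.43-fold lower in KRB with relative log expression factors and 4.69-fold lower with total counts. Every one of the 58 genes had both KRB libraries on the same side of both Schneider's libraries. Both KRB libraries were below in 54 genes and above in 4 genes (Psi18S-640d, Me28S-C1237, Me18S-A1374 and Me28S-U1554). Among all 2049 listed genes both KRB libraries were below in 51.5% and above in 47.4%, as a table selected for change must show. With 2 libraries against 2, an exact two-sided permutation test of 1 value cannot give a p below 0.333.

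**Figure D2:**
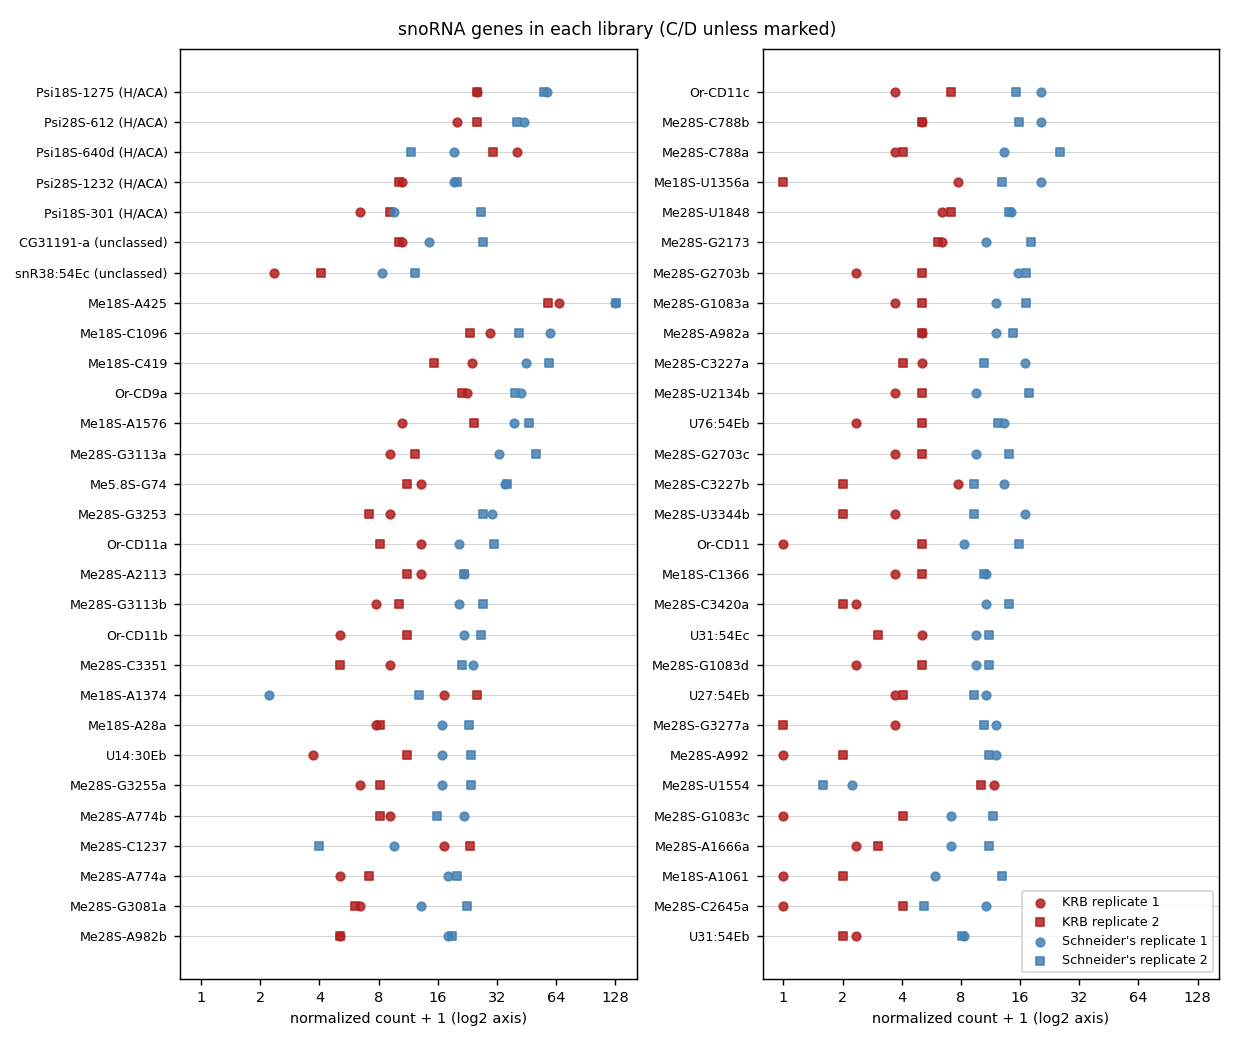
Normalized counts plus 1 on a log2 axis for each of the 58 snoRNA genes in the 2 KRB libraries (red) and the 2 Schneider's libraries (blue). In 54 genes both red points lie left of both blue points, and in 4 genes both lie right of them.

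Of the 53 snoRNA genes with enough reads to be tested, 48 fell and 2 rose in KRB (edgeR quasi-likelihood test, Benjamini-Hochberg adjusted p under 0.05 over 1756 tested genes). Among all tested genes 53.6% were called lower and 42.3% higher (95.9% in either direction), so that the share with a call says little about snoRNA genes. The median log2 fold change of snoRNA genes was -1.63, against -0.92 over all tested genes. The latter is no typical change, since 1005 tested genes had a negative and 751 a positive log2 fold change (middle 50% from -1.24 to 1.58). The log2 fold changes rest on the scaling: with relative log expression factors the same edgeR test called 7 snoRNA genes lower and 3 higher, and the median over all tested genes moved by 0.74. With DESeq2 and its size factors 0 were called lower (0 also at an unadjusted p under 0.05) and 2 higher, whereas with total counts 50 were called lower and 0 higher. No snoRNA gene changed the sign of its log2 fold change under any setting tried. Leaving out a library also changed how many snoRNA genes were tested, from 53 with all libraries. It was 57 without KRB replicate 1, 57 without KRB replicate 2, 41 without Schneider replicate 2 and 55 without Schneider replicate 1. The number called lower was 9 without KRB replicate 1, 18 without KRB replicate 2, 20 without Schneider replicate 2 and 40 without Schneider replicate 1. Less snoRNA and more of the other listed RNAs cannot be told apart by such relative values, nor, in bulk samples, less snoRNA per cell and fewer cells that hold it.

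Among the listed genes, all selected for a change, the H/ACA class lay above the C/D class in its change. The mean count was under 10 in 0 of 5 H/ACA genes, but in 20 of 51 C/D genes. The class medians were not tested against each other. Of 46 tested C/D genes 43 fell and 1 rose, with a median log2 fold change of -1.66. Of 5 tested H/ACA genes 3 fell and 1 rose, with a median of -1.0. Among all tested genes 53.6% were called lower and 42.3% higher. Relative log expression factors left 7 C/D and 0 H/ACA genes lower, and upper-quartile factors 20 and 0. The C/D genes tested were 50 without KRB replicate 1, 50 without KRB replicate 2 and 35 without Schneider replicate 2. On leaving out KRB replicate 1, KRB replicate 2 or Schneider replicate 2 the C/D genes called lower were 9, 17 and 18, and on leaving out KRB replicate 1 or KRB replicate 2 the H/ACA genes called lower were 0 and 1. The C/D genes summed to 372 and 392 normalized counts in KRB, against 946 and 1038 in Schneider's medium (2.60-fold lower in KRB). The H/ACA genes summed to 97.4 and 95.7 normalized counts in KRB, against 144 and 149 in Schneider's medium (1.52-fold lower in KRB). These folds rest on the scaling. With relative log expression factors the C/D sum was 1.56-fold lower in KRB, but the H/ACA sum was 1.10 times as high in KRB as in Schneider's medium, at 123 and 126 in KRB, against 118 and 109 in Schneider's medium. The H/ACA median lay above the C/D median by 0.66 log2 units, and by 0.47 to 0.74 on leaving out a library. It did so by 0.61 to 0.68 with other filters or a replicate block. Another scaling shifts all genes nearly alike, so it could hardly move this gap, which was 0.65 to 0.67 under the other scalings.

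**Figure D3:**
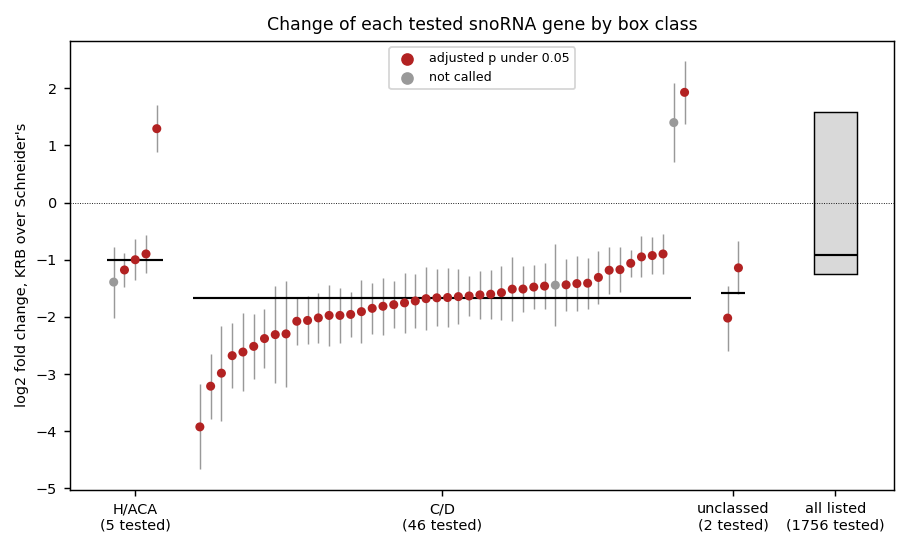
Log2 fold change (KRB over Schneider's) of each tested snoRNA gene, with its standard error as a grey bar, the class median as a black line, and a box for the middle 50% of all 1756 tested genes with their median. The C/D median is -1.66, the H/ACA median -1.0 and the median of all tested genes -0.92.

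Also as a share of reads on the listed genes, the H/ACA genes were larger in KRB. This share covers only 5 H/ACA and 51 C/D genes, all selected for a change, and is no measure of either class as a whole. H/ACA genes took 20.7% (95% Clopper-Pearson interval 16.6 to 25.4%) and 19.6% (16.2 to 23.5%) of the classed snoRNA reads in KRB, against 13.2% (11.1 to 15.6%) and 12.6% (11.1 to 14.1%) in Schneider's medium. These intervals cover counting error only. The intervals of KRB replicate 1 and replicate 2 both lay above those of the Schneider's libraries, and the means differed by 7.30 percentage points (exact permutation p = 0.333, the smallest possible). Much of this gap came from 1 gene. Without Psi18S-640d the share was 13.5% and 14.4% in KRB, against 11.7% and 11.8% in Schneider's medium, a difference of 2.23 percentage points.

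Among the H/ACA guides, Psi18S-1275 lies in an intron of RpS29 (3R, 9778398 to 9778537) and guides a pseudouridine of 18S ribosomal RNA. It had 24.4 and 24.4 normalized counts in KRB, against 56.2 and 54.7 in Schneider's medium. The replicates nearly coincided and the groups were far apart, with a log2 fold change of -1.18 (SE 0.30, edgeR adjusted p = 0.0104), although without KRB replicate 1 the adjusted p was 0.0730. Psi28S-612, a guide for 28S, had 18.9 and 24.4 normalized counts in KRB, against 42.7 and 39.3 in Schneider's medium. Its log2 fold change was -0.90 (SE 0.33, edgeR adjusted p = 0.0360), and the call was lost without KRB replicate 1 (0.252) or KRB replicate 2 (0.0683).

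Psi28S-1232, in an intron of RpL17 on the X chromosome (6743675 to 6743815), had 9.47 and 9.16 normalized counts in KRB, against 18.3 and 19.0 in Schneider's medium. Here too the groups did not overlap, but with 7 to 32 reads per library the adjusted p of 0.0334 (edgeR, log2 fold change -1.0, SE 0.36) was lost on leaving out any of the 4 libraries, at 0.0587 to 0.186. Psi18S-301, the gene with no host, had 5.41 and 8.14 normalized counts in KRB, against 8.55 and 25.6 in Schneider's medium. Its Schneider's libraries lay far apart, with the lower one close to KRB, and its log2 fold change of -1.39 (SE 0.62) did not pass the test (edgeR adjusted p = 0.0662). It was -2.03 (0.0098) without Schneider replicate 1, -0.45 (0.545) without Schneider replicate 2 and -2.35 (0.0128) with total counts.

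Psi18S-640d went the other way. This guide lies in a long intron of Arpc2, a gene for a subunit of the actin-nucleating Arp2/3 complex (2L, 20419626 to 20419756), in a cluster of 17 annotated snoRNA genes of which it alone was listed. It had 29 and 29 reads in KRB, against 15 and 18 in Schneider's medium, or 39.2 and 29.5 normalized counts against 18.3 and 10.7. Both KRB libraries were higher in reads as well as after scaling. The log2 fold change was 1.29 (SE 0.41, edgeR adjusted p = 0.0217), and the call was lost without KRB replicate 1 (0.0889), KRB replicate 2 (0.0591) or Schneider replicate 2 (0.176). Since 6 further annotated genes in the same host share its name up to the letter, reads may have been split among them.

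Among C/D guides for 18S ribosomal RNA, 7 of 8 tested genes fell, with a median log2 fold change of -1.37. Over all tested genes 53.6% were called lower. The most counted snoRNA of all, Me18S-A425, lies in RpL3 (3R, 11222841 to 11222924). It had 64.9 and 57.0 normalized counts in KRB, against 126 and 128 in Schneider's medium. The replicates of each liquid lay close together, and the log2 fold change was -1.06 (SE 0.24, edgeR adjusted p = 0.00663), with a call in each of the 4 fits that left out a library. The call was lost with relative log expression factors (-0.32, edgeR adjusted p = 0.277) and upper-quartile factors (-0.61, edgeR adjusted p = 0.0513). It was also lost with DESeq2 (-0.32, DESeq2 adjusted p = 0.572). Me18S-A425 overlaps an exon of a host transcript and an antisense gene, asRNA:CR31144. Me18S-C1096 from the same host had 28.4 and 22.4 normalized counts in KRB, against 58.6 and 40.4 in Schneider's medium. It fell by 0.95 on the log2 scale (SE 0.36, edgeR adjusted p = 0.0392), with the call lost without KRB replicate 1 (0.130), KRB replicate 2 (0.165) or Schneider replicate 1 (0.0774).

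Me18S-C419, from RpL15, had 23.0 and 14.2 normalized counts in KRB, against 44.0 and 57.7 in Schneider's medium. Its log2 fold change was -1.48 (SE 0.38, edgeR adjusted p = 0.0107, and 0.0600 without KRB replicate 2). Me18S-A1576, from Uhg2, had 9.47 and 23.4 normalized counts in KRB, against 37.9 and 45.8 in Schneider's medium. Its KRB libraries differed more than its Schneider's libraries, and the log2 fold change of -1.31 (SE 0.46, edgeR adjusted p = 0.0305) fell short without KRB replicate 1 (-0.65, 0.197) or Schneider replicate 2 (0.0757).

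Me18S-U1356a, from Uhg8, had 5 and 0 reads in KRB, against 16 and 20 in Schneider's medium. Its log2 fold change of -2.30 (SE 0.92, edgeR adjusted p = 0.0478) hung on the library with 0 reads: without KRB replicate 2 it was -1.16 (0.192), and the call was also lost without Schneider replicate 1 (0.104) or Schneider replicate 2 (0.0586). The 18S guide that did not fall was Me18S-A1374, which lies wholly in an exon of a transcript of Dys, the dystrophin gene. It had 12 and 24 reads in KRB, against 1 and 20 in Schneider's medium, and the 2 Schneider's libraries were far apart. The log2 fold change of 1.40 (SE 0.70) did not pass the test (edgeR adjusted p = 0.0909), but it was 3.78 (0.0132) without Schneider replicate 2 and 0.63 (0.263) without Schneider replicate 1. The same test passed with relative log expression factors (2.17, 0.0351) and upper-quartile factors (1.88, 0.0459).

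The guides for 28S ribosomal RNA were the largest group. Of 27 tested C/D genes aimed at 28S, 25 fell and 1 rose, with a median log2 fold change of -1.79. Over all tested genes the shares were 53.6% lower and 42.3% higher. The sum of the 28S guides was 149 and 160 normalized counts in KRB, against 432 and 481 in Schneider's medium (2.96-fold lower in KRB). The sum of the 18S guides was 158 and 154 normalized counts in KRB, against 317 and 340 in Schneider's medium (2.11-fold lower in KRB). With relative log expression factors the 28S sum was 1.77-fold lower and the 18S sum 1.26-fold lower in KRB. These groups of genes were not tested against each other, and the 28S group held more genes with a mean count under 10 (13 of 31, against 2 of 9). The single 5.8S guide, Me5.8S-G74, named because it is the only one, had 12.2 and 10.2 normalized counts in KRB, against 34.2 and 35.1 in Schneider's medium. It fell by 1.63 on the log2 scale (SE 0.35, edgeR adjusted p = 0.00542) and kept its call without each library in turn. With DESeq2 its call was lost, as for every snoRNA gene called lower. All 10 C/D genes with other names (Or-CD, U14, U27, U31 and U76) fell, with log2 fold changes from -2.52 to -0.93. The most counted of them, Or-CD9a of Nop60B, had 21.6 and 20.4 normalized counts in KRB, against 41.5 and 38.7 in Schneider's medium (edgeR adjusted p = 0.0288, lost without KRB replicate 1, 0.145, or KRB replicate 2, 0.106).

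Several 28S guides were nearly absent from the KRB libraries. Me28S-A992, from Uhg5 (2R, 14623276 to 14623346), had 0 and 1 reads in KRB, against 9 and 17 in Schneider's medium. The ratio of scaled reads, KRB over Schneider's, was 0.0559 (exact 95% counting interval 0.00136 to 0.340). Me28S-A992 was not called lower with DESeq2, but its fitted log2 fold change was -3.92 (SE 0.74, edgeR adjusted p = 0.00361), the lowest of all snoRNA genes. In the 3 fits without a library in which it had enough reads to be tested, its log2 fold change ran from -6.52 to -3.05. It had enough reads only through its Schneider's libraries and was named for few KRB reads. These fits and the interval are therefore not independent evidence of a fall.

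In 14 genes neither KRB library held more than 3 reads, and in 1 gene, Me28S-U1554, neither Schneider's library did. Me28S-G3277a had 2 and 0 reads in KRB, against 9 and 16 in Schneider's medium, a ratio of 0.116 (0.0133 to 0.466). Me28S-U3344b, from Stt3A, a subunit of oligosaccharyltransferase, had 2 and 1 reads in KRB, against 13 and 14 in Schneider's medium, a ratio of 0.161 (0.0313 to 0.524). U31:54Eb had 1 and 1 reads in KRB, against 6 and 12 in Schneider's medium, a ratio of 0.161 (0.0182 to 0.674). In these 3 genes the counting interval stayed below 1, but the edgeR call was lost without KRB replicate 2, at an adjusted p of 0.103 for Me28S-G3277a (log2 fold change -1.87, against -2.98 with all libraries), 0.121 for Me28S-U3344b and 0.109 for U31:54Eb. Without KRB replicate 1 the edgeR call was lost for Me28S-U3344b (log2 fold change -3.18) and U31:54Eb (-2.52). Me28S-C3227a, U27:54Eb and U31:54Ec had 2 to 3 reads in each KRB library, against 7 to 17 in each Schneider's library, and each lost its call without KRB replicate 1, KRB replicate 2 or Schneider replicate 1 (edgeR adjusted p 0.0522 to 0.201).

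Me28S-C788a, from lncRNA:CR45184, had 2 and 3 reads in KRB, against 10 and 41 in Schneider's medium, and its log2 fold change was -2.68 (SE 0.57, edgeR adjusted p = 0.00546, and 0.0563 without KRB replicate 1). Me28S-G2703b, from Uhg5, had 1 and 4 reads in KRB, against 12 and 27 in Schneider's medium, with a log2 fold change of -2.38 (SE 0.52, edgeR adjusted p = 0.00588), which was -1.71 (0.0648) without KRB replicate 1. At the other end, Me28S-A2113 of RpL30 had 12.2 and 10.2 normalized counts in KRB, against 20.8 and 20.8 in Schneider's medium. Among C/D guides for 28S it fell least (log2 fold change -0.90, SE 0.36, edgeR adjusted p = 0.0456), and leaving out any of the 4 libraries lost the call (0.0712 to 0.202). Me28S-C3227b, the only tested C/D guide for 28S with no call, had 5 and 1 reads in KRB, against 10 and 14 in Schneider's medium.

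The C/D gene that rose was Me28S-C1237, one of those with no match in the annotation. It had 12 and 22 reads in KRB, against 7 and 5 in Schneider's medium, so that both KRB libraries were higher in reads and after scaling. The log2 fold change was 1.93 (SE 0.55, edgeR adjusted p = 0.0147), with the call lost without KRB replicate 2 (1.64, 0.130) or Schneider replicate 2 (1.02, 0.145). Me28S-U1554, also unmatched and picked out after its values were seen, had 8 and 9 reads in KRB, against 1 and 1 in Schneider's medium, and was too weakly counted to be tested. Its ratio of scaled reads was 12.3 (2.93 to 110).

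The other 4 untested genes all had fewer reads in KRB. Me18S-A1061 of Uhg5 had 0 and 1 reads in KRB, against 4 and 20 in Schneider's medium, a ratio of 0.0605 (0.00147 to 0.371). Me28S-G1083c had 0 and 3 reads in KRB, against 5 and 18 in Schneider's medium, a ratio of 0.189 (0.0364 to 0.627). Me28S-A1666a had a ratio of 0.198 (0.0379 to 0.659), whereas the interval of Me28S-C2645a (0.290, 0.0539 to 1.03) reached 1. All 4 had been selected for a change, so an interval below 1 is not independent evidence of a fall. Of the unclassed genes, snR38:54Ec of Uhg1 had 1 and 3 reads in KRB, against 6 and 19 in Schneider's medium (log2 fold change -2.02, edgeR adjusted p = 0.0144, lost without KRB replicate 1, at -1.44 and 0.152, or KRB replicate 2, at -2.75 and 0.0715). CG31191-a had 9.47 and 9.16 normalized counts in KRB, against 13.4 and 26.2 in Schneider's medium (log2 fold change -1.14, edgeR adjusted p = 0.0495, lost without KRB replicate 1, 0.222, KRB replicate 2, 0.185, or Schneider replicate 2, 0.290).

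Relative to the ribosomal protein genes that carry them, the snoRNA genes fell. All 16 genes hosted by ribosomal protein genes were tested and fell (median log2 fold change -1.45). In non-coding hosts 25 of 26 tested genes fell (median -1.69), and in other protein-coding hosts 5 of 7 (median -1.14). Of all tested genes in this table selected for change, 53.6% were called lower. The kinds of host were not tested against each other. For 6 of the ribosomal protein hosts the host itself was listed (RpL28, RpL30, RpS12, RpS16, RpS29 and RpS9), which allowed both to be read in the same libraries. Each of the 6 hosts rose, with log2 fold changes from 1.16 to 1.27, while all 10 snoRNA genes inside them fell, with log2 fold changes from -1.96 to -0.90. The difference, snoRNA minus host, ran from -3.23 to -2.13 on the log2 scale. With total counts 0 of these 6 hosts were called higher, and with relative log expression factors 1 of the 10 snoRNA genes was called lower. Of these 10, 3 were called lower with upper-quartile factors, 0 with DESeq2, 2 on leaving out KRB replicate 1, 5 on leaving out KRB replicate 2 and 6 on leaving out Schneider replicate 2.

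**Figure D4:**
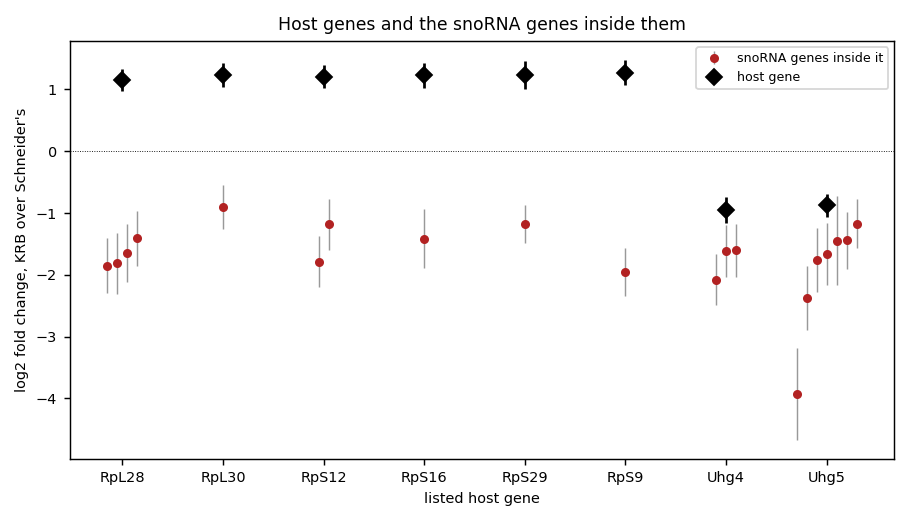
Log2 fold change (KRB over Schneider's) of the 8 listed host genes (black diamonds) and of the tested snoRNA genes inside them (red points), with standard errors as bars. The ribosomal protein hosts lie between 1.16 and 1.27 and the snoRNA genes inside them between -1.96 and -0.90, whereas Uhg4 and Uhg5 lie below 0 with their snoRNA genes.

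The number of snoRNA reads per 10000 reads of the host does not depend on any scaling between libraries. Summed over the 6 ribosomal protein hosts it was 4.56 and 3.98 in KRB, against 29.9 and 24.8 in Schneider's medium, which is 6.41-fold lower in KRB. For RpL28, which holds Me28S-C3351 and Or-CD11a, b and c, it was 7.75 and 7.37 in KRB, against 53.4 and 53.4 in Schneider's medium (7.07-fold lower). RpS9, which holds Me28S-G3253, had 2.10 and 1.56 in KRB, against 20.9 and 14.4 in Schneider's medium (9.65-fold lower), the largest drop of the 8 listed hosts. The groups did not overlap in any of the 8 hosts, and the exact permutation p was 0.333 in each, the smallest possible. Hosts and snoRNA genes had all been selected for a change in these same libraries. For the ribosomal protein hosts, which rose while their snoRNA genes fell, this separation is therefore not independent evidence. A host or snoRNA gene that did not change could not be listed. Me28S-G3253 itself had 8.12 and 6.11 normalized counts in KRB, against 29.3 and 26.2 in Schneider's medium, and kept its call (log2 fold change -1.96, SE 0.39, edgeR adjusted p = 0.00416) without each library in turn. With DESeq2 its call was lost. An antisense gene, asRNA:CR45874, overlaps Me28S-G3253.

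The non-coding hosts Uhg4 and Uhg5 fell with their listed snoRNA genes, but less. Uhg4 had 158 and 197 normalized counts in KRB, against 321 and 368 in Schneider's medium (log2 fold change -0.95, SE 0.21, edgeR adjusted p = 0.00562, and 0.0701 without KRB replicate 1). Uhg5 had 331 and 382 normalized counts in KRB, against 718 and 591 in Schneider's medium (log2 fold change -0.87, SE 0.18, edgeR adjusted p = 0.00524, and 0.0982 without KRB replicate 1). With relative log expression factors neither host was called, at log2 fold changes of -0.21 for Uhg4 (adjusted p = 0.413) and -0.14 for Uhg5 (0.577), nor was either with upper-quartile factors or DESeq2. Of the 11 listed snoRNA genes inside them, 10 were tested and 9 fell, with a median log2 fold change of -1.64. Over all tested genes 53.6% were called lower. Per 10000 host reads the listed snoRNA genes of both hosts together had 746 and 685 reads in KRB, against 1293 and 1520 in Schneider's medium, which is 1.97-fold lower in KRB. Only 3 of 7 annotated snoRNA genes of Uhg4 and 8 of 11 of Uhg5 were listed, all selected for a change. The larger fall of the snoRNA genes is therefore not independent evidence either. By contrast Uhg7, of whose 4 annotated snoRNA genes none was listed, had 1476 and 1531 normalized counts in KRB, against 659 and 654 in Schneider's medium (log2 fold change 1.19, SE 0.14, edgeR adjusted p = 0.0012, and 0.189 with total counts).

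**Figure D5:**
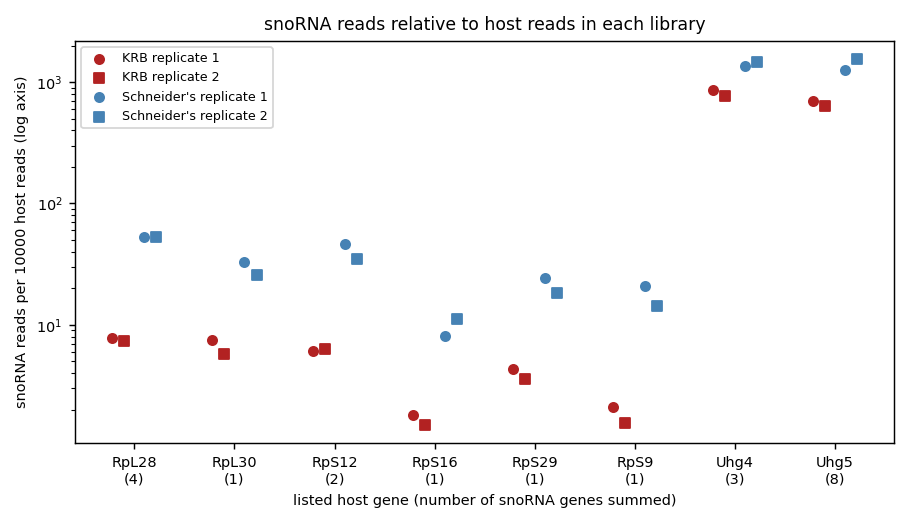
Reads on the listed snoRNA genes inside each of 8 listed host genes per 10000 reads on the host itself, on a log axis, in the 2 KRB libraries (red) and the 2 Schneider's libraries (blue), with the number of snoRNA genes summed in brackets. Both KRB libraries lie below both Schneider's libraries in all 8 hosts, as at RpL28 with 7.75 and 7.37 against 53.4 and 53.4.

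Of the 8 core proteins of the 2 particles, 2 were in the table. NHP2, a core protein of H/ACA particles, had 666 and 690 normalized counts in KRB, against 1409 and 1580 in Schneider's medium. It fell by 1.14 on the log2 scale (SE 0.15, edgeR adjusted p = 0.0015). hoip, which encodes the protein that binds the C/D box fold and also takes part in splicing, had 1195 and 1396 normalized counts in KRB, against 2838 and 3210 in Schneider's medium. It fell by 1.22 on the log2 scale (SE 0.17, edgeR adjusted p = 0.00158). Both kept their call without each library in turn and lost it with relative log expression factors or DESeq2. Fibrillarin and dyskerin (Nop60B) were not listed and were not analysed here.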

How the data were processed

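Counts of reads per gene in 4 libraries of S2 cells were used, 2 after 4 h in KRB and 2 after 4 h in Schneider's medium. Per the study's methods and the submitters' processing notes, the authors aligned single-end reads to dm6 with STAR 2.4.0.1, counted raw reads per transcript with their own script on an Ensembl annotation, and tested with edgeR 3.24.3. The deposited counts were not normalized, and whether counting used strand is not given in the sources used here. The authors' log2 fold changes and p-values in the deposited table hold their own comparison and were not used, save to check that all listed genes pass their selection.

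All 2049 genes were fitted together in edgeR 4.0.16 (R 4.3.3) with its default filter on low counts, TMM factors, glmQLFit and glmQLFTest, two-sided, with Benjamini-Hochberg adjustment over 1756 tested genes and a threshold of 0.05. The biological coefficient of variation was 0.207. Normalized counts are counts divided by each library's size relative to the geometric mean (0.739 and 0.983 in KRB, against 0.819 and 1.68 in Schneider's medium). Scripts were tested on simulated data. Ratios of scaled reads, KRB over Schneider's, carry exact binomial intervals at 95% for counting error only. Positions, lengths and hosts came from the Ensembl annotation. The p-values measure the spread between these libraries. They were computed on genes already selected for a change in these same libraries, so they are not error rates for finding a change.

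The snoRNA genes, lists and tests were chosen with earlier results of these data known. Named in each class were the 5 most counted genes, the 3 highest and 3 lowest log2 fold changes among tested genes averaging at least 10 reads, up to 5 tested genes opposite in sign to their class median, those with 3 reads or fewer in both libraries of 1 liquid and over 10 in a library of the other, their hosts, and listed particle proteins. Genes inside listed hosts and the untested, uncalled or sole genes of a group were named after their values were seen. A result on 1 host gene and the snoRNA gene inside it is not reported here. Alternatives were other scalings, DESeq2 1.42.0, other filters, a replicate block, a threshold of 0.01 and leaving out each library. Python 3.11.15 with pandas 2.3.3, scipy 1.17.1 and matplotlib 3.10.9 made summaries and figures.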

Additional observations from a re-analysis of the deposited data

How the results depend on the processing

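Against 48 genes called lower and 2 higher of 53 tested, the calls moved with the scaling and the filter, as follows, and the cause was not tested. With relative log expression factors 7 snoRNA genes were called lower (0 H/ACA, 7 C/D) and 2 C/D genes higher, with a median log2 fold change of -0.25 for H/ACA and -0.92 for C/D genes, 1 of the 10 genes in listed ribosomal protein hosts lower and 0 particle proteins lower. With upper-quartile factors 21 were called lower (0 H/ACA, 20 C/D) and 2 C/D genes higher, with medians of -0.54 and -1.20, and 3 of those 10 genes were called lower. With total counts 0 snoRNA genes (0 H/ACA, 0 C/D) and 0 of 6 ribosomal protein hosts were called higher, with medians of -1.97 for H/ACA and -2.62 for C/D genes. With TMM factors made without snoRNA genes the C/D median was -1.76. With DESeq2 0 snoRNA genes (0 H/ACA, 0 C/D), 0 of the 10 hosted genes and 0 particle proteins were called lower, with medians of -0.26 and -0.92. The median over all tested genes shifted by 0.74 with relative log expression factors or DESeq2, 0.46 with upper-quartile factors, -0.97 with total counts and -0.10 with TMM factors made without snoRNA genes. Over all tested genes relative log expression factors gave 749 genes higher and 178 lower, upper-quartile factors 748 and 547, total counts 335 and 1004 and DESeq2 734 and 89, against 742 and 942 by TMM.

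Without a filter on low counts all 58 genes were tested, 2 C/D genes were called higher and the C/D median was -1.86. With a mean of at least 10 reads 37 were tested and 31 (28 C/D) called lower, fewer genes being tested. At an adjusted p under 0.01, 14 genes (0 H/ACA, 14 C/D, 3 of the 10 hosted genes) were called lower and 0 (0 H/ACA, 0 C/D) higher. Chosen after seeing the data, the set without genes named as copies held 20 tested genes, 17 lower (13 C/D). The difference in H/ACA share was 8.83 percentage points without the most counted gene of each class and 2.23 without Psi18S-640d, also chosen after seeing the data.

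With 1 library omitted at a time, 9 to 40 genes were called lower and 0 to 2 higher. It gave 0 to 3 H/ACA genes lower and 0 to 1 higher, 9 to 35 C/D genes lower and 0 to 1 higher, C/D medians from -1.92 to -1.39, and 2 to 8 of the 10 hosted genes lower. Where 1 library of a liquid was left, it was assumed to vary like the other liquid's. These fits tested 41 to 57 snoRNA genes, against 53 with all libraries. Of 50 called snoRNA genes 45 lost the call in at least 1 such fit. The replicate block gave 49 snoRNA genes lower and 3 higher (2 C/D genes higher). Same-numbered libraries deviated together (correlation 0.28 over 1756 genes, 0.37 over 53 snoRNA genes), but the numbers share only a label, with 2 pairs. Over 31 named genes with a test, 241 of 386 values under alternatives kept direction and call, 138 lost the call and 7 gained one, and none reversed.

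The ratio of sums, KRB over Schneider's, was -0.51 on the log2 scale for all snoRNA genes, 0.13 for H/ACA and -0.64 for C/D genes with relative log expression factors, a comparison chosen after seeing the data. The mean count was under 10 in 21 of 58 genes, where 1 read more or less moves a fold change most.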

Other observations

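Small Cajal body RNAs, which guide the same modifications on spliceosomal RNAs, were listed with 2 genes. scaRNA:MeU2-C28, a guide for U2 methylation, had 1 and 3 reads in KRB, against 6 and 15 in Schneider's medium. Its log2 fold change was -1.79 (SE 0.54, edgeR adjusted p = 0.0183), with the call lost without KRB replicate 1 (0.199), KRB replicate 2 (0.0854) or Schneider replicate 1 (0.0524). scaRNA:PsiU2-35.45, a guide for U2 pseudouridylation, had 10.8 and 6.11 normalized counts in KRB, against 15.9 and 20.8 in Schneider's medium. Its log2 fold change was -1.17 (SE 0.43, edgeR adjusted p = 0.0371), lost without KRB replicate 1 (0.0841), KRB replicate 2 (0.228) or Schneider replicate 2 (0.143). In both the groups did not overlap, as in 51.5% of listed genes with both KRB libraries below, and like all listed genes they had been selected for a change in these libraries.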
